A study of Mus musculus with 11 samples.

Results

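The angiotensin system genes described here are 8 of the 27687 genes in a table of RNA-seq read counts from 11 mouse high-grade gliomas. They were taken by gene symbol: the receptors Agtr2 and Agtr1a, the receptor-associated protein Agtrap, the substrate Agt, the prorenin receptor Atp6ap2, and the peptidases Ace, Enpep and Lnpep. Agtr2 was picked on these tumours, for its rise with knockdown and for its spread of over 100-fold among the knockdown tumours, so both are given as a description without a test. The other 7 were named by their role in the system, with earlier results of the same tumours known.

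The groups were 9 tumours with prolonged knockdown of Ezh2, the histone methyltransferase of Polycomb repressive complex 2 (PRC2), and 2 control tumours without it. All 11 grew in the brains of NOD-SCID mice, which lack functional T and B cells, after injection of glioma initiating cells. These cells were neural stem cells of the subventricular zone of 7-day-old mice with the compound conditional genotype p53;Ink4a/Arf;Krasv12;LucR, recombined in culture with lentiviral CMV-Cre. Cells of both groups carried the doxycycline-inducible hairpin FH1-tUTG-shEzh2. The labels list doxycycline (2 mg/ml in the drinking water, with 1% sucrose) for every tumour, while the design text has mice with and without it; if the controls had none, effects of the drug and of the hairpin cannot be told apart. The age of the hosts and the number of cell preparations behind the tumours are not stated by the labels or the design text.

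In the circulating system renin cuts angiotensinogen, the product of Agt, into angiotensin I, and the angiotensin-converting enzyme Ace trims that to the active peptide angiotensin II. The peptide acts through G protein-coupled receptors: the type 1 receptor (Agtr1a and its close copy Agtr1b in mice) raises blood pressure, whereas the type 2 receptor, encoded by Agtr2, often acts against it and is best known from fetal tissue. In the brain, astrocytes are a main source of angiotensinogen.

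The libraries held between 11209233 and 18638382 counts. Ezh2 lay between 7.27 and 30.4 CPM (counts per 1000000 of the scaled library) in the knockdown tumours, against 45.3 and 52.7 CPM in the controls. All 8 neural stem cell and glioma markers were detected, led by Vim and Nes; 4 of them fell (Vim, Nes, Sox2 and Olig2) and 2 rose (Egfr and Pdgfra) in the knockdown tumours by the edgeR quasi-likelihood test at a Benjamini-Hochberg adjusted p under 0.05. The count of 6 called became 2 without control 2, and 3 without control 1. Xist was at 41.4 to 106 CPM in knockdown 2 to 6, at 1.10 CPM or less in the other 4 knockdown tumours, and at 74.2 and 131 CPM in the controls.

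The starts of 4 genes are printed: Agtr2, the member with the widest range, Ace and Atp6ap2, which passed the test in opposite directions, and Agt, the substrate. They are RefSeq promoters of build GRCm38.p6, 250 bases before to 50 after the start, and 7 of the 8 genes had an entry; Agtr1a was not matched. Capitals mark the dinucleotide CG and the motif TATAAA, searched on both strands (TTTATA on the strand printed), and these marks share no base.
Agtr2 (chrX:21484374-21484673, plus strand): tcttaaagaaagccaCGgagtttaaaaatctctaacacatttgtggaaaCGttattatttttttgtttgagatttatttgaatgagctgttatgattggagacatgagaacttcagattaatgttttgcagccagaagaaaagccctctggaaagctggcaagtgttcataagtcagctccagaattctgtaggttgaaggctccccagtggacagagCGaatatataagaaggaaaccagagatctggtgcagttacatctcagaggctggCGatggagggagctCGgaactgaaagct
Ace (chr11:105967698-105967997, plus strand): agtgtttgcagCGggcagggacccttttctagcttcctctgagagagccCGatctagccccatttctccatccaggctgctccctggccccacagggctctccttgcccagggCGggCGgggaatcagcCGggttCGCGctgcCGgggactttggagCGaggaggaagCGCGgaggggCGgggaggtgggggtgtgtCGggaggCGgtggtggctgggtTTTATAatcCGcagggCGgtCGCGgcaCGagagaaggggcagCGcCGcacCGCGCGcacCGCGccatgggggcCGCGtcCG
Atp6ap2 (chrX:12587509-12587808, plus strand): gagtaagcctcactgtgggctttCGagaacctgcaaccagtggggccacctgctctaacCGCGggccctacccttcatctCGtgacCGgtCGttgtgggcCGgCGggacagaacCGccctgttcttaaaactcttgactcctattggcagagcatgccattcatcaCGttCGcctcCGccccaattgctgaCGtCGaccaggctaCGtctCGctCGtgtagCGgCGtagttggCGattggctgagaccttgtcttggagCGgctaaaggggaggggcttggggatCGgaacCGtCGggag
Agt (chr8:124569657-124569956, minus strand): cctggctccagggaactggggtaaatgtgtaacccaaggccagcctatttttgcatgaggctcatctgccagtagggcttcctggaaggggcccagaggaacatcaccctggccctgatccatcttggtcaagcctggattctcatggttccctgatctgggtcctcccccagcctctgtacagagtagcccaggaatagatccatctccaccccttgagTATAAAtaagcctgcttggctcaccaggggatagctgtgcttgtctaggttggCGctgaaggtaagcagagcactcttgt
Ace and Atp6ap2 held 29 and 24 CG, more than 87.1% and 80.0% of the 32851 promoters in the reference table. A second Ace entry (chr11:105974939-105975238), not printed, held 2 CG, more than 14.1% of promoters, and no TATAAA. Agtr2 held 5 and Agt 1, where the median promoter held 7. TATAAA stood 30 bases before the start of Agt and, on the other strand, 31 bases before the printed start of Ace. Of all promoters, 13.6% held it on either strand. Only this exact motif was searched, so near matches, as in the Agtr2 window, are not marked. These are descriptions of the letters in this window.

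Agtr2 (ENSMUSG00000068122, mm9 chromosome X, 21061670 to 21066290) was close to silent in the controls and present in every knockdown tumour. It ran from 1.26 CPM in knockdown 9 through a median of 15.3 to 156 CPM in knockdown 8, against 0.154 and 0.251 CPM in the controls. The control values rest on 2 and 4 reads, and no knockdown tumour came as low as either control. Summed over libraries, the level in the knockdown tumours was 203 times that in the controls (5484 reads against 6). Knockdown 8 alone gave 2888 of these reads. The fitted log2 fold change of 7.53 ± 2.33 (SE) ranked 4th among the 16241 tested genes and first among the 12266 of them with an average log2 CPM of at least 2. In bulk tumours, more cells that express a gene and more of its RNA per cell cannot be told apart.

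The knockdown tumours differed widely from each other in Agtr2. The highest had 123 times the level of the lowest, and the SD of log2(CPM + 1) among them, 1.93, ranked 14th of the 16241 tested genes. Knockdown 8 and 6, at 156 and 98.4 CPM, stood above the others. Then came knockdown 5, 2, 7 and 4, at 39.5, 23.1, 15.3 and 11.9 CPM. Knockdown 3, 1 and 9 were lowest, at 7.45, 5.33 and 1.26 CPM. The ratio of highest to lowest was 30.7 for Agtr1a, on a single read in its lowest tumour, 28.8 for Enpep, 11.1 for Agt, and between 1.37 and 4.21 for the other 4.

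**Figure D1:**
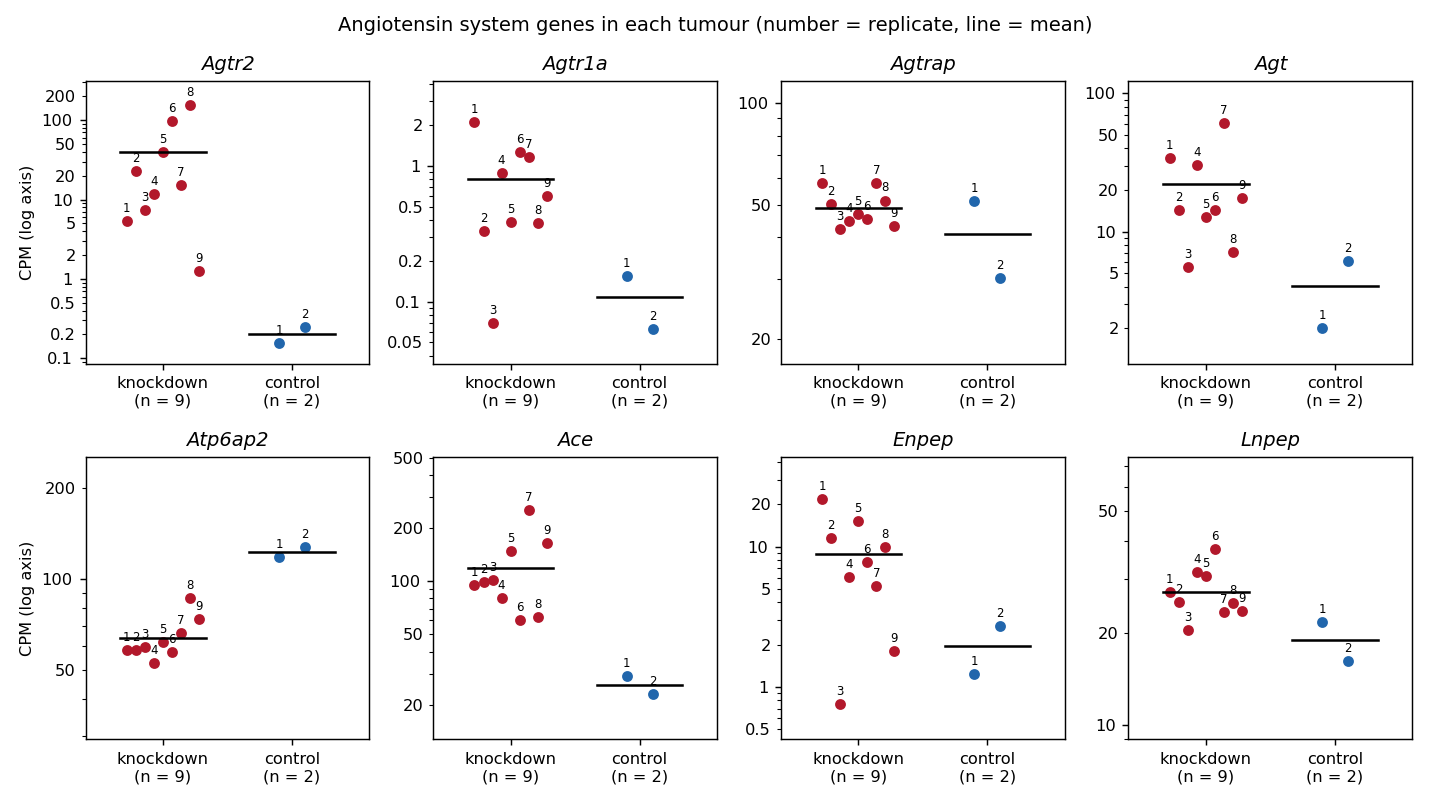
Level of each of the 8 genes in CPM on a log axis, 1 point per tumour with its replicate number, and a line at each group's mean (9 knockdown tumours left, 2 controls right). In Agtr2, Ace and Atp6ap2 the groups do not overlap, and Agtr2 spans 1.26 to 156 CPM within the knockdown group.

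Agtr1a, a type 1 receptor gene (ENSMUSG00000049115, mm9 chromosome 13, 30428310 to 30474736), stayed scarce in both groups. It ran from 0.0690 CPM in knockdown 3 through a median of 0.597 to 2.12 CPM in knockdown 1, against 0.154 and 0.0626 CPM in the controls. Knockdown 3 lay between the controls and the other 8 were above both. The summed counts, 100 reads against 3, give a ratio of 7.39, with 1 to 27 reads in a knockdown tumour. The fitted log2 fold change of 2.82 ± 1.14 (SE) did not pass the test (edgeR, adjusted p = 0.0928). It entered the test through knockdown tumours alone, so this p, and the call made without knockdown 3, support nothing. Its paralog Agtr1b had no read in the controls and at most 1.18 CPM in a knockdown tumour, too few for the test, and reads may have been split between these copies.

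Scaled by exon length, Agtr2 was above Agtr1a in all 9 knockdown tumours. The ratio of their CPM per kilobase of exon was 1.77 in knockdown 9, had a median of 58.8 and reached 346 in knockdown 8. In mean CPM per kilobase over the knockdown tumours, Atp6ap2 was highest at 24.3 ± 3.94 (SD, n = 9), then Ace at 22.4 ± 11.7, Agtr2 at 12.0 ± 15.8, Agt at 11.6 ± 9.29 and Agtrap at 11.5 ± 1.4. Lnpep at 1.92 ± 0.371, Enpep at 1.89 ± 1.41 and Agtr1a at 0.287 ± 0.228 followed. Each of the first 5 differed from the next among them by less than the larger of their SDs, as did Lnpep from Enpep. In the controls the order was Atp6ap2 at 46.8 ± 2.56 CPM per kilobase (SD, n = 2), Agtrap at 9.62 ± 3.47, Ace at 4.93 ± 0.833, Agt at 2.15 ± 1.55 and Lnpep at 1.34 ± 0.277. Enpep at 0.417 ± 0.220, Agtr2 at 0.0608 ± 0.0206 and Agtr1a at 0.0389 ± 0.0232 were lowest; there Agt and Lnpep, and Agtr2 and Agtr1a, lay within the larger SD of each other.

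Agtrap, which binds the type 1 receptor and promotes its internalization (ENSMUSG00000029007, mm9 chromosome 4, 147451170 to 147462140), varied least. It ran from 42.4 CPM in knockdown 3 through a median of 46.9 to 58.1 CPM in knockdown 7, against 51.2 and 30.4 CPM in the controls. The controls spanned most of the knockdown values. Its log2 fold change of 0.26 ± 0.19 (SE) did not pass (edgeR, adjusted p = 0.327) and was -0.07 without control 2.

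Of the 7 members other than Agtr2, 1 rose, 1 fell and 5 did not pass the test. Among all tested genes 23.3% changed, 10.3% higher and 13.0% lower in the knockdown; nothing is read from the members' share, since this contrast was in view when they were chosen. All 8 passed the filter on low counts, Agtr2 and Agtr1a only through knockdown tumours. The groups did not overlap in 2 of the 7, Ace and Atp6ap2, and in 27.2% of all tested genes.

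Agt, the substrate (ENSMUSG00000031980, mm9 chromosome 8, 127080434 to 127093606), was above both controls in 8 of 9 knockdown tumours and did not pass the test. It ran from 5.52 CPM in knockdown 3 through a median of 14.4 to 61.2 CPM in knockdown 7, against 2.00 and 6.14 CPM in the controls. Only knockdown 3 lay between the controls. The log2 fold change was 2.42 ± 0.91 (SE; edgeR, adjusted p = 0.0735); it passed without knockdown 3, at 2.55 (adjusted p = 0.0474), and by DESeq2, at 2.39 (adjusted p = 0.00643). Of 10 astrocyte markers, led by Gja1 and Gfap, 0 passed by edgeR, 1 had an unadjusted p under 0.05, and 1 passed by DESeq2 and 1 by limma-voom. Their summed level was 759 to 1696 CPM in the knockdown tumours, against 1069.6 and 1084 CPM in the controls; without Gja1, left out after its values were seen, it was 295 to 1174 CPM in the knockdown tumours, against 381 and 527 CPM in the controls. Its part in the Agt values was not tested.

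Atp6ap2, the prorenin receptor and an accessory subunit of the vacuolar proton pump (ENSMUSG00000031007, mm9 chromosome X, 12164927 to 12194175), was the member that fell. It ran from 52.8 CPM in knockdown 4 through a median of 59.6 to 86.2 CPM in knockdown 8, against 118 and 127 CPM in the controls. Every knockdown tumour was below both controls. The log2 fold change was -0.94 ± 0.15 (SE; edgeR, adjusted p = 0.00158), a 1.92-fold lower level. Among the libraries with at least 10 CPM of Xist, 5 knockdown tumours and both controls, it was -1.11 (adjusted p = 0.000739).

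Ace, the angiotensin-converting enzyme (ENSMUSG00000020681, mm9 chromosome 11, 105829259 to 105851278), was above both controls in all 9 knockdown tumours. It ran from 60.2 CPM in knockdown 6 through a median of 98.7 to 253 CPM in knockdown 7, against 29.2 and 22.9 CPM in the controls. It rose by 2.19 ± 0.54 on the log2 scale (SE; edgeR, adjusted p = 0.0144), or 4.56-fold, and by 1.88 (adjusted p = 0.00771) among the libraries with at least 10 CPM of Xist. With a control left out the direction stayed and the call was lost, at 2.37 (adjusted p = 0.0981) without control 1 and 2.02 (adjusted p = 0.116) without control 2. An antisense gene with 8 reads overlaps Ace, which had 16593.

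Ace is found on endothelium and choroid plexus. Of 11 endothelial markers, led by Flt1, 3 rose (Emcn, Cldn5 and Tie1), 1 fell (Flt1) and 7 did not pass. Their summed level was 151 to 377 CPM in the knockdown tumours, against 453 and 271 CPM in the controls. Without Flt1, left out after its values were seen, it was 119.9 to 334 CPM in the knockdown tumours, against 140.2 and 146 CPM in the controls, with 8 knockdown tumours above both controls and knockdown 3 below both. The count of 4 endothelial markers called became 1 without control 1 or 2 or knockdown 1, 2, 5 or 6, and 2 without knockdown 4 or 8, and 7 without knockdown 3. Of 6 choroid plexus markers 5 were tested. Enpp2 and Folr1 were called higher and 3 did not pass. The median log2 fold change of the 5 was -0.40. Folr1 entered the test through knockdown tumours alone, so its call supports nothing, and the count of 2 called became 0 without control 1 or 2, and 1 without knockdown 2. Their summed level was 366 to 2405 CPM in the knockdown tumours, against 289 and 236 CPM in the controls. Like Ace it was highest in knockdown 7. It was lowest in knockdown 9, where Ace was at 165 CPM, while Ace was lowest in knockdown 6. Enpp2 alone was at 193 to 2276 CPM in the knockdown tumours, against 155 and 50.8 CPM in the controls. Most of the summed level in knockdown 7 was Enpp2. Ttr, another marker of that list, was at 11.7 CPM or less in every tumour. The part of these cells in the rise of Ace was not tested.

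Enpep, aminopeptidase A, which turns angiotensin II into angiotensin III (ENSMUSG00000028024, mm9 chromosome 3, 128972093 to 129035638), ran from 0.759 CPM in knockdown 3 through a median of 7.82 to 21.9 CPM in knockdown 1, against 1.23 and 2.69 CPM in the controls. Of the knockdown tumours 7 were above both controls, knockdown 9 lay between them and knockdown 3 was below both. The log2 fold change of 2.16 ± 1.02 (SE) did not pass (edgeR, adjusted p = 0.144), while DESeq2 called it, at 2.14 (adjusted p = 0.0398). Enpep marks pericytes in the brain. Of 11 pericyte and smooth muscle markers, led by Pdgfrb and Acta2, 2 rose (Pdgfrb and Abcc9) and 9 did not pass; the count of 2 called became 0 without control 1 or 2, and 1 without knockdown 1, 2 or 4. Their summed level was 579 to 1412 CPM in the knockdown tumours, against 447 and 506 CPM in the controls. It was lowest in knockdown 3, as was Enpep, but highest in knockdown 4, where Enpep was at 6.03 CPM. Enpep was highest in knockdown 1. The part of these cells was not tested.

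Lnpep, the insulin-regulated aminopeptidase that binds angiotensin IV (ENSMUSG00000023845, mm9 chromosome 17, 17664687 to 17761453), ran from 20.4 CPM in knockdown 3 through a median of 25.2 to 37.5 CPM in knockdown 6, against 21.7 and 16.2 CPM in the controls. All but knockdown 3 were above both controls. Its log2 fold change of 0.52 ± 0.22 (SE) did not pass (edgeR, adjusted p = 0.105).

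**Figure D2:**
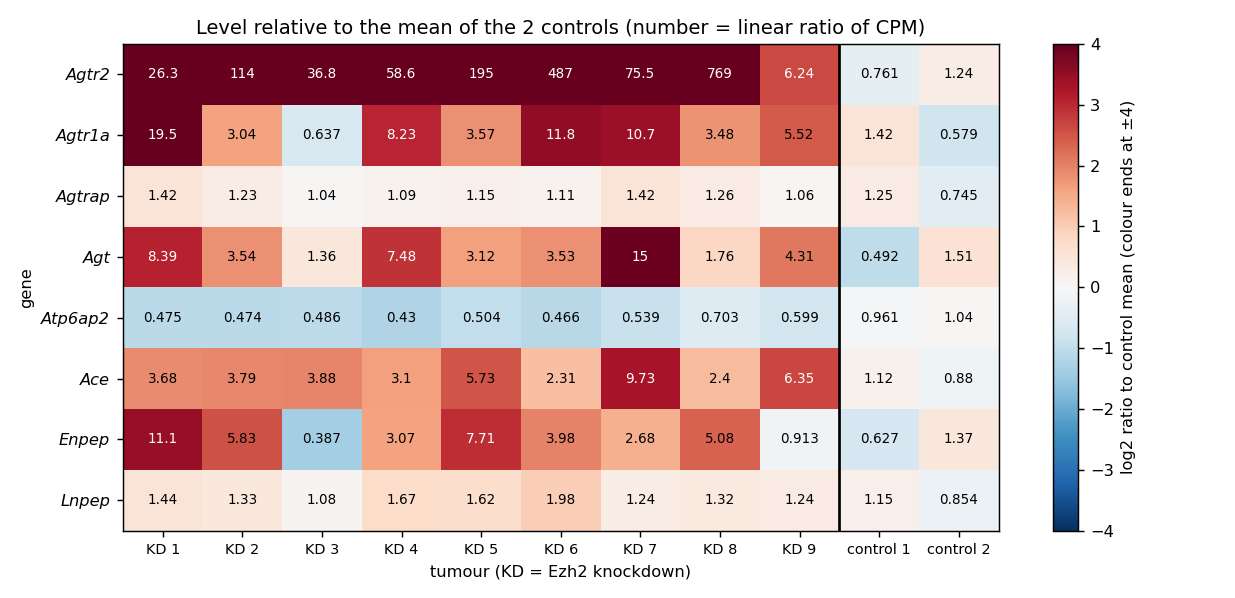
Level of each of the 8 genes (rows) in each tumour (columns, 9 knockdown tumours left of the line, 2 controls right) divided by the control mean, printed as a linear ratio and coloured on a log2 scale. Agtr2 is 6.24 to 769 times the control mean in the knockdown tumours, and Atp6ap2 is 0.430 to 0.703 of it.

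Among the 9 knockdown tumours, less remaining Ezh2 went with more Agtr2, and the relation did not pass correction. Pearson's r of log2(CPM + 1) was -0.75 (exact permutation, two-sided p = 0.0217, adjusted over 8 relations p = 0.173) and Spearman's rho -0.70 (exact permutation p = 0.0433, adjusted p = 0.346). Without knockdown 3 and 9, which had the most Ezh2, r was -0.55 (exact permutation p = 0.204), so the relation rests in part on those tumours. Knockdown 7 had little Ezh2, 8.31 CPM, and the median level of Agtr2. The 4 knockdown tumours low in Xist and the 5 high in it are each too few for an r of their own.

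No relation between Agtr2 and another member passed. Pearson's r and Spearman's rho were -0.12 and -0.15 for Agtr1a, 0.13 and 0.32 for Agtrap, -0.33 and -0.43 for Agt, 0.21 and 0.03 for Atp6ap2, -0.52 and -0.48 for Ace, 0.44 and 0.35 for Enpep, and 0.47 and 0.37 for Lnpep. Unadjusted exact permutation p-values of r were 0.150 to 0.767 and of rho 0.194 to 0.948, and adjusted ones 0.471 to 0.767 and 0.547 to 0.948. Without the 2 tumours farthest from each gene's median, r was -0.70 for Agt, 0.71 for Agtrap, -0.19 for Enpep, and between -0.48 and 0.35 for the other 4.

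**Figure D3:**
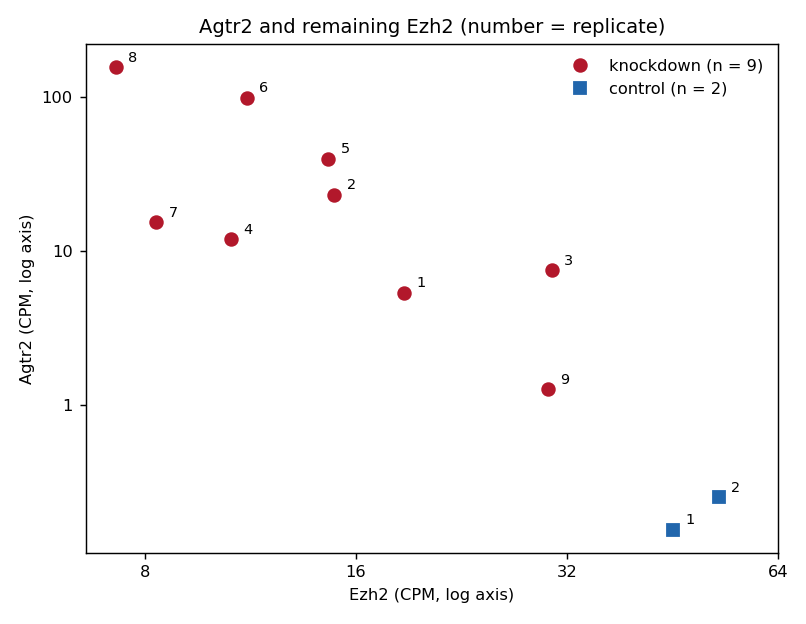
Agtr2 against Ezh2, both in CPM on log axes, 1 point per tumour with its replicate number (9 knockdown tumours and 2 controls, circles and squares). Knockdown 8 has the least Ezh2, 7.27 CPM, and the most Agtr2, 156 CPM; knockdown 9 has 30.1 CPM of Ezh2 and 1.26 CPM of Agtr2.

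Among 12144 genes with an average log2 CPM of at least 1, the pattern over the 9 knockdown tumours was most like that of Agtr2 in Flrt3 (Pearson r = 0.97), Vill (Pearson r = 0.97), Spop (Pearson r = 0.96), Etl4 (Pearson r = 0.95) and Trim16 (r = 0.94). It was most opposite in Lims1 (r = -0.98), Cables1 (r = -0.97) and Clcn2 (r = -0.96). These are the extremes of many genes over few tumours and are given without a test. Their ranges were far narrower: Flrt3, an adhesion protein, ran from 18.3 to 41.8 CPM, and Vill, a villin-like protein, from 3.12 to 11.3 CPM. Between the groups, Vill rose by 2.13 ± 0.54 (log2, SE; edgeR, adjusted p = 0.0154), Etl4 fell by 1.12 ± 0.31 (adjusted p = 0.0238) and the other 6 did not pass.

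Within 1 Mb of Agtr2 on the X chromosome the table held 31 other genes, of which 15 were tested. Of these 2 rose (Ndufb11 and Usp11) and 4 fell (Uba1, Syn1, Cfp and Gm5124). Log2 fold changes over the 15 lay between -1.91 and 1.05. Among all tested genes 23.3% changed, 10.3% higher and 13.0% lower, and nothing particular to the region is drawn from its count. Ndufb11, a subunit of respiratory complex I, rose by 0.76 ± 0.22 (SE; edgeR, adjusted p = 0.0288). The nearest coding gene, Slc6a14 at 230.4 kb, had no read in the controls and 21 in the knockdown tumours, and was too low for the test.

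A wider list of 30 symbols held renin, other enzymes that form or degrade angiotensins, further receptors and signalling partners; 29 were found and 23 tested. Of these 1 was called higher (Nr3c2), 12 fell and 10 did not pass: 56.5% changed, where 23.3% of all tested genes did. The count of 13 called became 4 without control 2, and 6 without control 1. The median log2 fold change was -0.76, and 0.07 over all tested genes. The list was written with earlier results known, and nothing particular to it is drawn from these shares.

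Renin was nearly missing: Ren1 had no read in the controls and at most 0.199 CPM in a knockdown tumour, where 3 reads are 0.162 to 0.273 CPM. Cma1, a mast cell chymase that can form angiotensin II, fell by 3.77 ± 0.97 on the log2 scale (SE; edgeR, adjusted p = 0.0170), at 0.0685 to 4.96 CPM in the knockdown tumours, against 8.77 and 22.4 CPM in the controls. It is also 1 of 6 mast cell markers, of which 5 fell (the count became 0 without control 2, and 2 without control 1; Ms4a2 entered the test through the controls alone), and their summed level was 12.0 to 73.3 CPM in the knockdown tumours, against 61.1 and 133 CPM in the controls.

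Of the wider list's peptidases known to degrade or trim angiotensins, cathepsins aside, 6 fell, where 13.0% of all tested genes did. Nothing is drawn from this count. Among the member peptidases none fell: Ace rose, and Enpep and Lnpep did not pass. Anpep, aminopeptidase N, fell by 1.58 ± 0.31 on the log2 scale (SE; edgeR, adjusted p = 0.00447), at 11.5 to 32.1 CPM in the knockdown tumours, against 51.6 and 85.1 CPM in the controls. Mme, neprilysin, fell by 1.98 ± 0.61 (adjusted p = 0.0354), at 0.257 to 2.45 CPM in the knockdown tumours, against 1.77 and 4.26 CPM in the controls, so that its groups overlapped. Nln, Rnpep, Dpp3 and Prep fell by 0.76, 0.71, 0.55 and 0.49. Thop1 (-0.07 ± 0.15) and Prcp (-0.22 ± 0.17) did not pass.

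The cathepsins Ctsz, Ctsd and Ctsa, lysosomal proteases, fell by 1.11, 0.94 and 0.79 on the log2 scale, and Ptpn6, a phosphatase of blood cells linked to type 2 receptor signalling, by 0.96 ± 0.28 (SE; edgeR, adjusted p = 0.0286). Of 9 macrophage and microglia markers, led by C1qa and Csf1r, 8 fell, and this count was 1 without control 2, and 5 without knockdown 2 or 5, and 8 without control 1. Their summed level was 247 to 535 CPM in the knockdown tumours, against 652 and 1408 CPM in the controls. The part of these cells in the fall of the cathepsins and Ptpn6 was not tested.

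The gene counted as higher was scarce. Nr3c2, the mineralocorticoid receptor, was at 0.273 to 1.59 CPM in the knockdown tumours, against 0.0769 and 0.251 CPM in the controls, with a fitted log2 fold change of 2.55 ± 0.66 (SE; edgeR, adjusted p = 0.0176). It entered the test through knockdown tumours alone, so its call supports nothing. Its summed counts, 139 against 5, give a ratio of 6.17.

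Among proteins that bind the type 2 receptor, Zbtb16, a zinc finger transcription factor, fell by 1.45 ± 0.45 (log2, SE; edgeR, adjusted p = 0.0356). Mtus1 was at 54.1 to 198 CPM in the knockdown tumours, against 26.0 and 65.7 CPM in the controls, and did not pass (1.07 ± 0.47, edgeR, adjusted p = 0.121). The kinin receptor Bdkrb2 (-0.95 ± 0.55) and the angiotensin 1-7 receptor Mas1 (0.45 ± 0.50) did not pass either. Without control 1, 6 genes of the wider list passed (Cma1, Ctsz, Ctsa, Anpep, Rnpep and Ptpn6), and without control 2, 4 passed (Ctsz, Ctsa, Prep and Dpp3), so that Ctsz and Ctsa passed both ways. Calls were also lost when a knockdown tumour was left out: that of Mme without knockdown 1, 2, 4 or 8 and that of Zbtb16 without knockdown 1 or 4.

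**Figure D4:**
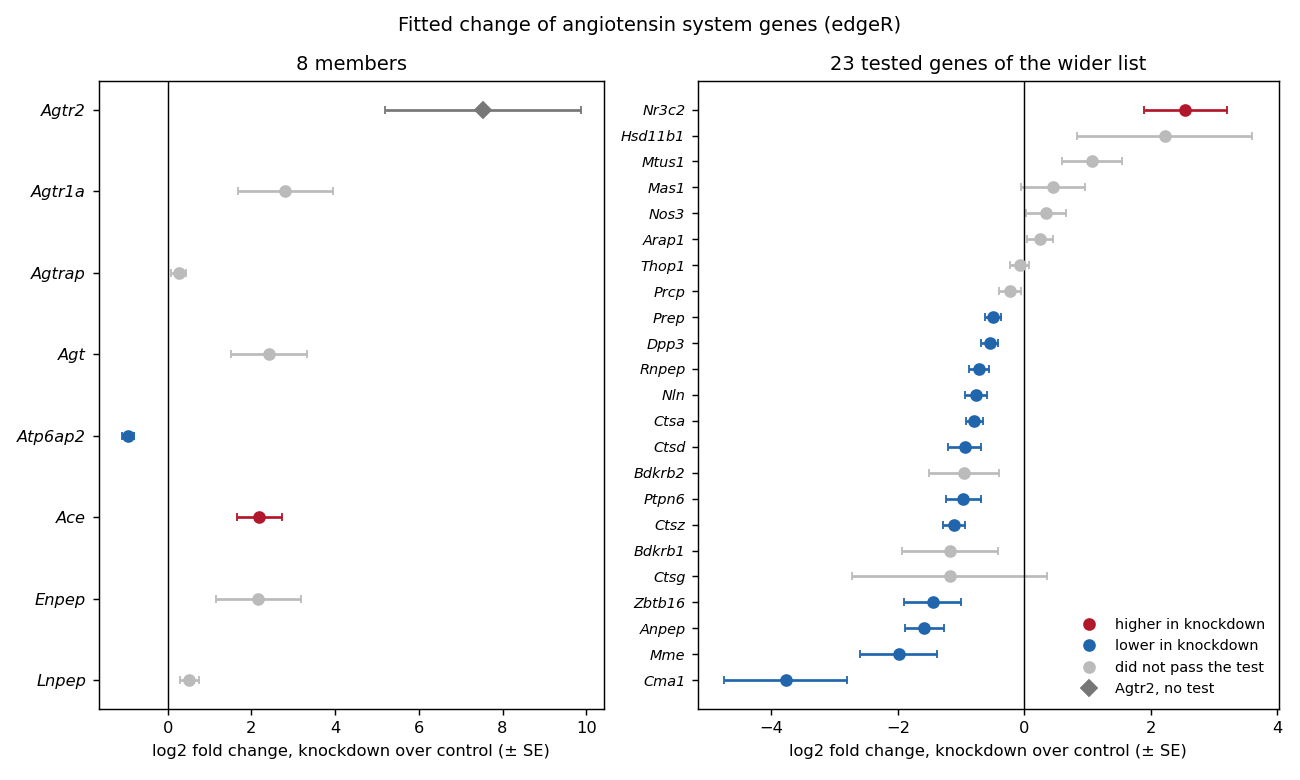
Fitted log2 fold change (knockdown over control, ± SE) of the 8 members and of the 23 tested genes of the wider list, coloured by whether the edgeR adjusted p was under 0.05; Agtr2 is drawn without a test. Ace and Nr3c2 lie right of 0 among the genes called, and Atp6ap2 and 12 genes of the wider list left of it.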

How the data were processed

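The deposited table holds a whole-number read count per Ensembl gene and tumour, and its values show no normalization by the authors. TopHat 1.4.0, HTSeq and build mm9 are named, per the submitters' processing notes; for settings and any use of strand, nothing is given in the sources used here. Groups and replicate numbers came from the sample titles. Nothing says that tumours came from separate cultures, so p-values cover only how these samples vary and may not cover how separate cultures would.

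Counts of all 11 libraries were fitted with edgeR 4.0.16 in R 4.3.3 (filterByExpr, which kept 16241 genes with 99.9% of the counts; TMM scaling; glmQLFit and glmQLFTest without covariates; Benjamini-Hochberg adjustment over all genes). The code was tested on simulated data. CPM uses the TMM-scaled library, and an SE is the log2 fold change over the square root of F. At 11209233 to 18638382 counts per library, genes under about 1 CPM are imprecise. Replicates differed by a chi-square of at least 11.2 per degree of freedom, so none was a copy of another. Exon lengths are unions of GENCODE M21 exons, a later annotation than the one counted. Alternatives were RLE factors, no filter, DESeq2 1.42.0, limma-voom (limma 3.58.1), left-out tumours, a replicate block, another pseudocount or scaling for correlations, and libraries with Xist reads; the minimum of 10 CPM of Xist, marker calls with a tumour left out and marker sums without 1 marker were chosen after seeing the data. Named beside the members were Ezh2, genes of the wider list that passed and the 2 of smallest p that did not, the 2 leading markers of each list, genes near Agtr2 and the 8 most like or unlike it in pattern; other markers and Thop1, Prcp and Mas1 were named after their values were seen. Members and lists were chosen with earlier results of these data known. One listed symbol, Ren2, was not matched, and 1 gene of the list is not reported here and is left out of its counts.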

Additional observations from a re-analysis of the deposited data

Results flagged for a closer look

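A single tumour stood far from the other 8 knockdown tumours in 2 genes of the wider list, judged by its gap to the nearest tumour as a share of the whole range. Chance marks about 1 in 20 groups in this way, and the wider list alone had 23 tested genes, so nothing is read from a count of 2. Mme was highest in knockdown 6, at 2.45 CPM where the median of the knockdown tumours was 0.539 CPM, with a gap of 0.543 of the range. Nr3c2 was lowest in the same tumour, at 0.273 CPM where the median was 0.977 CPM, with a gap of 0.509 of the range. That lowest value is 3 reads, so the gap rests on few reads. Without knockdown 6 the edgeR adjusted p of Mme was 0.00400.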

How the results depend on the processing

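Leaving out a tumour gave 1290 to 4269 called genes in all where the full set gave 3790, the lowest counts being 1290 without control 1 and 1750 without control 2. It gave 1 to 4 called members of 7 where the full set gave 2, and 4 to 14 of the wider list where it gave 13. With 1 control left, that tumour is assumed to vary like the knockdown tumours. With the replicate number as a block, 686 genes passed in all (362 higher, 324 lower; 572 shared with the 3790), 2 members and 2 genes of the wider list (Cma1 and Anpep); the numbers share no labelled origin, and the deviations of same-numbered tumours correlated at -0.15 and 0.01. The block called 1 macrophage, 1 neural stem and glioma, 2 endothelial, 4 mast cell and 0 choroid plexus markers, and 1 each of neurons and of pericytes and smooth muscle. limma-voom called 4 macrophage markers and 1 endothelial one, also the endothelial count without a filter. DESeq2 called 4 members, adding Agt and Enpep. Atp6ap2 passed under all alternatives run. The log2 fold change of Agtrap turned to -0.070 without control 2 and was 0.684 without control 1. The log2 fold change of Agtr2 was 6.04 with the block, 6.21 by limma-voom and 6.88 to 7.93 with a tumour left out. Of the correlations with Agtr2, that of Agtrap turned to -0.058 with CPM by the total count alone and that of Enpep to -0.19 without the 2 farthest tumours. With a tumour left out, r ran from -0.31 to 0.14 for Agtr1a, -0.49 to 0.59 for Atp6ap2 and -0.13 to 0.38 for Agtrap. The cause of these changes was not tested. The 2 controls, and 6 and 3 control reads of Agtr2 and Agtr1a, limit what these data resolve.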

Other observations

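Most of the 8 genes had their lowest value among the knockdown tumours in the same tumour: 5 (Agtr1a, Agt, Lnpep, Agtrap and Enpep) were lowest in knockdown 3. The summed markers of endothelium, of pericytes and smooth muscle, of macrophages and microglia and of mast cells were lowest there too. Those of astrocytes were highest there, at 1696 CPM, though without Gja1 they were second lowest, at 394 CPM. Those of choroid plexus, fibroblasts, neurons, and neural stem cells and glioma were neither lowest nor highest there. Knockdown 3 also had the most Ezh2 of the knockdown tumours, 30.4 CPM. Knockdown 9, at 30.1 CPM of Ezh2, was lowest only in Agtr2 among the 8 genes. Knockdown 7 had the highest Agt, Ace and Agtrap. This was noticed after the values were seen and was not tested.

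Of 10 neuron markers, led by Mtap2 and Nefl, 2 passed (Rbfox3 and Snap25, both higher) and 8 did not; Rbfox3 entered the test through knockdown tumours alone, so its call supports nothing. The count of 2 called became 0 without control 1 or 2. The summed level of the 10 was 150.5 to 447 CPM in the knockdown tumours, against 200.3 and 239.5 CPM in the controls. Of 7 fibroblast markers, led by Fn1 and Col1a1, Pdgfra rose, Col1a2 fell by 4.18 ± 0.60 on the log2 scale (SE; edgeR, adjusted p = 0.000821) and 5 did not pass; the count of 2 called became 1 without control 1 or 2. Pdgfra is also counted among the neural stem cell and glioma markers. The summed level of the 7 was 4050.2 to 10309 CPM in the knockdown tumours, against 11152 and 12256 CPM in the controls. Their median log2 fold change was 0.43, so the sum and the median went opposite ways.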
